A study of Mus musculus with 52 samples.

Results

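The genes described are those for the proteins of the cytosolic ribosome. They were taken as every gene symbol in both deposited count tables made of the prefix Rps or Rpl followed by a number (with or without a, x or l), by p0, p1 or p2, or by a. The pattern found 82 of 49466 genes, 32 named for the small ribosomal subunit and 50 named for the large one. GENCODE lists 80 of the 82 as protein coding and the other 2, Rps4l and Rpl6l, as processed pseudogenes.

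Single burst-forming unit-erythroid cells (BFU-E, early progenitors committed to the red cell lineage) from fetal livers of C57/Bl6J mice at embryonic day 14.5 were placed 1 per well, and polyadenylated RNA of each daughter cell was sequenced on its own once the founder had divided. The groups were 13 daughter pairs cultured with 100 nM dexamethasone, a synthetic glucocorticoid, and 13 pairs cultured without it (untreated), all over 16 hours. All cells had been depleted of those carrying markers of mature blood lineages, of Sca-1, CD16/32 or CD41, before a flow sort on Kit, CD24 and CD71, which is the transferrin receptor. The labels name no animal, so pairs may share an embryo or a litter and p-values measure the spread between founders and their wells.

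Each ribosome holds 1 small subunit, which reads the messenger RNA, and 1 large subunit, which forms the peptide bonds. Their proteins are made in nearly equal amounts, and many of their messenger RNAs begin with a run of pyrimidines (the terminal oligopyrimidine tract) through which translation of the whole family is switched on and off together. Red cell precursors depend on a high output of ribosomes: in people, loss of 1 copy of any of several ribosomal protein genes causes Diamond-Blackfan anaemia, in which erythroid progenitors fail while most other blood cells are made.

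The pyrimidine run is shown for 5 genes, chosen because 3 of them (Rpl35, Rps9 and Rps27) differed between groups of pairs below and the other 2 (Rpl28 and Rpl38) have the run at or beside the listed start. The 30 bases span 15 before and 15 after the start of the gene as RefSeq lists it on GRCm38.p6, at chr2:39005117-39005146 (minus strand) for Rpl35, chr7:3704026-3704055 (plus) for Rps9, chr3:90213634-90213663 (minus) for Rps27, chr7:4792950-4792979 (plus) for Rpl28 and chr11:114668565-114668594 (plus) for Rpl38. Capitals mark a C followed by at least 4 further C or T bases, where that run lies within 5 bases of the listed start.
Rpl35: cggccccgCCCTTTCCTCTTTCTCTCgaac
Rps9: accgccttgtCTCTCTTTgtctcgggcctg
Rps27: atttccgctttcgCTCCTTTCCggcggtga
Rpl28: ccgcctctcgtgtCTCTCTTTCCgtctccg
Rpl38: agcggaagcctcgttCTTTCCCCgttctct
A RefSeq window was found for 60 of the 82 genes. Such a run was present in 32 of the 60 (53.3%), against 26.8% of the 27025 genes with a window, so the listed start of the other 28 had no run of these letters within that distance. In the 250 bases before and 50 bases after the start, searched on both strands, ACTTCC was found in 30 of the 60 genes (50%) against 26.5% of all genes, GGGCGG in 36 (60%) against 38.2%, and TATAAA in 6 (10%) against 15.7%. These shares describe letters and not binding. ACTTCC holds a pyrimidine run of its own, and its last letters can be the first of CCGCCC, the other strand of GGGCGG, so the motifs are not independent.

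Of 52 libraries, 48 held at least 100000 counts (210383 to 5606500) and were used. Marker genes put 10 of them with granulocytes and monocytes (summed markers such as Mpo and Elane 7012 to 44166 CPM, counts scaled to the usual common library size, against 3.89 to 5723 CPM in the other 38) and 38 with erythroid cells (summed erythroid markers 89.3 to 1598 CPM in the 10 libraries and 1633 to 12672 CPM in the 38), although the depletion step was directed at cells bearing CD16/32. The 10 granulocyte/monocyte-like libraries were both daughters of 5 pairs (dexamethasone pairs 6, 7 and 10 and untreated pairs 9 and 10). Both daughters passed the depth limit in 23 pairs, 13 with dexamethasone and 10 untreated. Pairs sat in library plate columns, read from the number in their labelled pair name, with 14 kept pairs in columns 1 to 4 (8 dexamethasone, 6 untreated) and 9 in columns 5 to 7 (5 dexamethasone, 4 untreated), and only column 6 held both treatments.

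Among the 48 libraries, 3 stood apart in the ribosomal protein genes. The first daughter of dexamethasone pair 12, with 210383 counts and 3886 genes detected (5327 to 9473 in the other 47), had lost some members and overrepresented others. Of the 74 members that averaged over 100 CPM, 42 lay more than 4-fold below their median in the other libraries and 25 more than 2-fold above it. Rpl29 and Rps12 had 0 counts there, against medians of 194 and 135 CPM elsewhere, while Rpl18 had 5519 CPM against 569 and Rpl31 had 1654 CPM against 144. Other genes at that level were also mostly lost in this library, 91.6% of 1842 lying more than 4-fold low. Its sister cell had 0 of the 74 members so low. The other 2 libraries are the first daughters of dexamethasone pair 10 and untreated pair 11, described next. Counts of called members that rest on any of these 3 pairs are given with and without them. Medians by transcript length and correlations with length are given with all kept pairs only. Levels per kb of single members and their variation leave out only the first daughter of dexamethasone pair 12.

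The 82 genes together took 4.10% of the counts of a library at the median of 48 libraries, with a range of 3.13% to 9.48%. The small subunit genes contributed a median of 1.77% and the large subunit genes 2.32%. With dexamethasone the share had a lowest value of 3.13%, a median of 4.21% and a highest value of 9.21% (26 libraries), against 3.20%, 3.76% and 9.48% in untreated cells (22 libraries). The ranges of the treatments overlapped almost entirely. Summed over the daughters of a pair, the share was 4.35% ± 0.89 with dexamethasone (SD, n = 13 pairs) and 4.40% ± 1.09 untreated (SD, n = 10 pairs). It was 3.37%, 4.29% and 9.21% (lowest, median, highest) in the 10 granulocyte/monocyte-like libraries and 3.13%, 4.09% and 9.48% in the 38 erythroid-like ones. In plate columns 1 to 4 it was 3.13%, 3.76% and 6.97% (29 libraries), and in columns 5 to 7 it was 3.33%, 4.29% and 9.48% (19 libraries). Again the ranges overlapped.

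Daughters of 1 founder mostly had similar shares, as the plot of shares by pair shows. The absolute difference between sisters had a median of 0.471 percentage points over 23 pairs, against 0.873 over 492 combinations of cells from different founders with the same treatment. The 2 pairs that hold the libraries above 9% broke this pattern. The first daughter of dexamethasone pair 10 had 9.21% and its sister 4.09%, and 76 of 79 genes were higher in the first daughter, with a median difference of 1.37 on the log2(CPM + 1) scale. The first daughter of untreated pair 11 had 9.48% and its sister 3.38%, with 78 of 79 genes higher and a median difference of 1.61. Length went with these differences: among other genes over 100 CPM, those with transcripts of up to 1000 nt were also higher in the first daughter (medians 1.02 in dexamethasone pair 10 and 0.82 in untreated pair 11), while those above 2000 nt were lower (-1.34 in dexamethasone pair 10 and -0.65 in untreated pair 11). Whether transcript length accounts for the difference between these sisters was not tested.

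**Figure D1:**
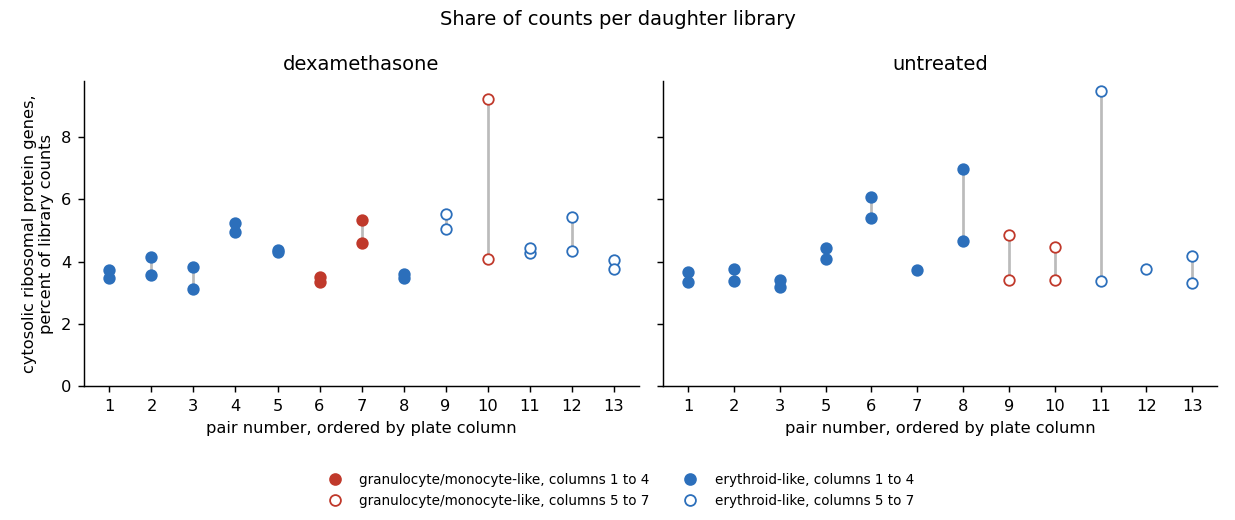
Share of library counts in the 82 cytosolic ribosomal protein genes (percent, y axis from 0) for each library with at least 100000 counts, by pair number; a grey line joins sister cells, colour gives the marker class, and filled points are plate columns 1 to 4, open points columns 5 to 7. Most sisters lie close together between 3 and 6%, and the first daughters of dexamethasone pair 10 (9.21%) and untreated pair 11 (9.48%) lie far above their sisters.

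Levels of different genes were compared as CPM per kb of spliced transcript (median length of the basic protein-coding transcripts in GENCODE M21). Nearly all members were abundant: the median of the mean levels of detected members was 539 CPM per kb, against 2.04 CPM per kb over 18699 genes with a count and a length, and 99.2% of those genes lay below the members' median. Counts were found for 80 of the 82 genes, for 74 of them in every one of the 48 libraries. The median was 606 CPM per kb for the small subunit and 467 for the large.

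Levels within the family nevertheless spanned 3 orders of magnitude, down to Rpl6l, a processed pseudogene near the limit of detection. The span was narrower among members with counts in all 47 libraries described next, of which Rpl24 was the lowest. Leaving out the first daughter of dexamethasone pair 12, the highest was Rpl4, a large subunit protein that lines the exit tunnel, with 2461 ± 554 CPM per kb (SD over 47 libraries). Rplp0, the base of the stalk that recruits elongation factors, followed with 2273 ± 780 CPM per kb, and Rps14, at rank 4, had 2085 ± 987. The means of these genes differ by less than 1 SD over libraries, and their differences within a library were not tested. The other stalk proteins, which bind Rplp0 as dimers, were lower: Rplp1 had 1222 ± 590 and Rplp2 had 748 ± 414 CPM per kb.

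**Figure D2:**
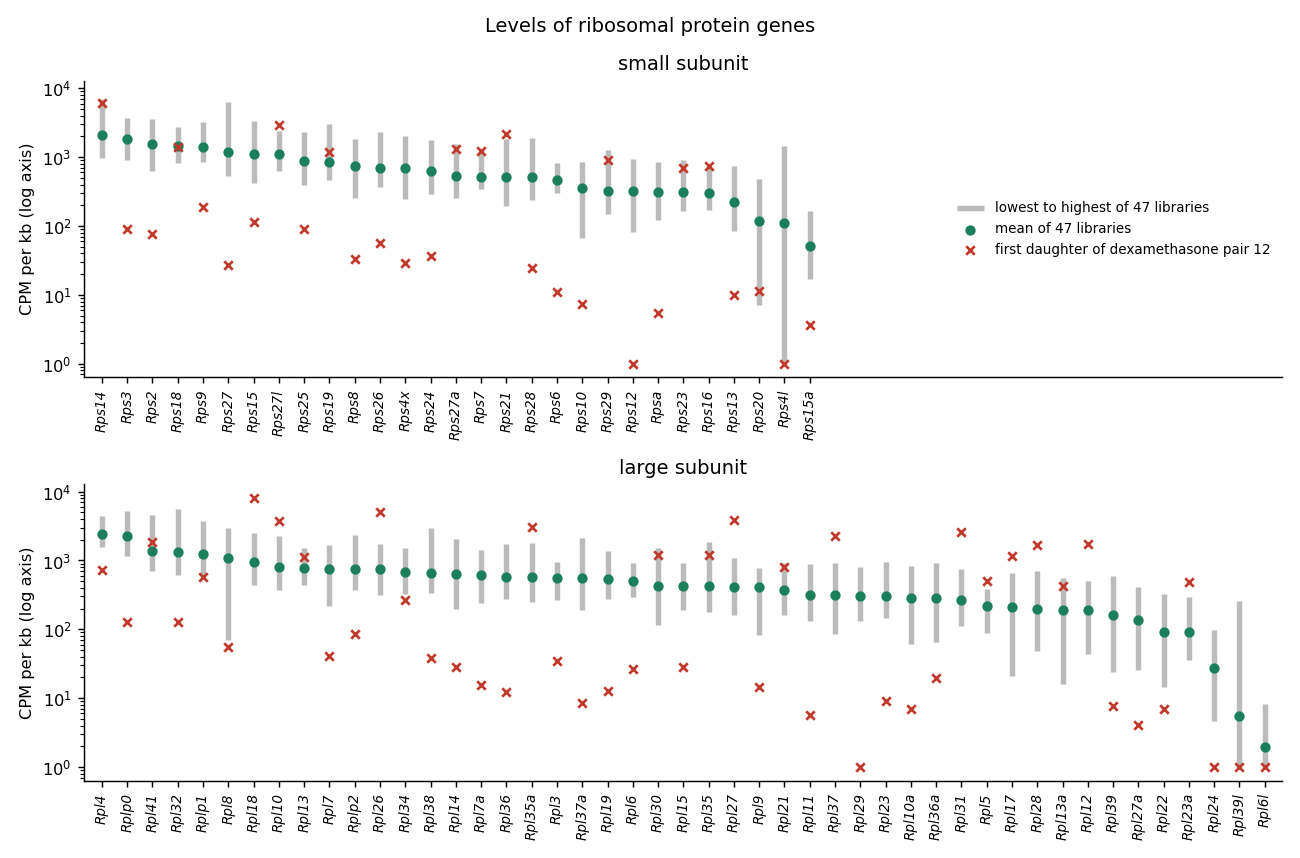
Level of detected members, with 4 left out, as CPM per kb of spliced transcript (log axis; values under 1 are drawn at 1), small subunit above and large subunit below. Green points are means and grey bars the range of 47 libraries; red crosses are the first daughter of dexamethasone pair 12, which lie far below the range for some genes (Rps12, Rpl29 at 0) and above it for others (Rpl18).

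The genes named as second copies of another member differed widely. Rpl10l and Rpl3l, copies known from testis and from muscle, had 0 counts in all 48 libraries, which allows a level of up to 0.0234 CPM over the pooled counts and 14.3 CPM in the shallowest library. Rpl39l, also known from testis, was at 0 in all but 2 libraries and reached 177 CPM in the second daughter of untreated pair 7. Their main copies Rpl10, Rpl3 and Rpl39 had 809 ± 313, 555 ± 183 and 160 ± 109 CPM per kb (SD, 47 libraries). Rps27l, the copy of Rps27 that p53 induces, differed from its main copy by less than 1 SD per length: Rps27l had 1100 ± 344 CPM per kb and Rps27 had 1187 ± 863. Rpl6l, at 1.94 ± 1.31 CPM per kb, was near the limit of detection. Rpl24 was the lowest member with counts in all 47 libraries, at 27.9 ± 17.3 CPM per kb, and Rps15a followed with 50.7 ± 30.6, for which the annotated length of 5130 nt is far above that of its neighbours. Reads that fit both a gene and one of its many processed pseudogenes could not be followed, because no source used here gives the counting settings, so low values of single members are uncertain.

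The 18 members in which mutations cause Diamond-Blackfan anaemia in people ran from 216 CPM per kb for Rpl5 to 1187 CPM per kb for Rps27. Rps19, the gene most often affected, had 837 ± 410 CPM per kb. Rpl5 and Rpl11, which with 5S ribosomal RNA form the particle that holds back Mdm2, had 216 ± 59 and 319 ± 134 CPM per kb. The most and the least abundant members were therefore not among the 18. Over the 77 members detected in at least 47 libraries, the coefficient of variation across the 47 libraries had a median of 47.3%, with Rpl4 the steadiest gene (22.5%) and Rps27 the most variable (72.7%).

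Dexamethasone against no treatment was the comparison the culture was set up for. No ribosomal protein gene passed the test: edgeR's quasi-likelihood test on pair sums called 0 of 78 members at an adjusted p under 0.05, where the percentage called among all 7190 genes was also 0. At an unadjusted p under 0.05 there were 0 members and 71 genes in all, and DESeq2 and limma also called 0 genes. Fold changes lay about 0, with 41 positive and 37 negative values among members. The members' median log2 fold change was 0.01 and that of all genes was 0.02.

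The member with the smallest p was Rps4x, the X-linked form of a small subunit protein. It had 323, 571 and 926 CPM (lowest, median, highest of 13 pairs) with dexamethasone, against 449, 701 and 1167 CPM in 10 untreated pairs, and the groups overlapped. Its log2 fold change was -0.36 ± 0.20 (SE, edgeR p = 0.0897, adjusted p = 0.9999). Rps14 had the smallest p among members with a positive value, with 931, 1357 and 2862 CPM with dexamethasone, against 710, 1216 and 1791 CPM untreated, and a log2 fold change of 0.35 ± 0.24 (SE, edgeR adjusted p = 0.9999). The other members with the smallest p were Rps15, Rpl8, Rpl13 and Rpl27 with values of 0.19 to 0.31, and Rps10, Rps12, Rpl4 and Rps2 with values of -0.16 to -0.40. Of the 18 Diamond-Blackfan genes 0 were called, with a median of 0.08, and Rps19 had a log2 fold change of 0.21 ± 0.24 (SE). The same test called 0 of 77 mitochondrial ribosomal protein genes and 0 of 29 genes on the list of translation factors and other messenger RNAs known for the pyrimidine tract. Within plate columns 1 to 4 the members' median was -0.05 and within columns 5 to 7 it was 0.16. EdgeR called 0 members and 0 genes in either set. At an unadjusted p under 0.05 there was 1 member in each, and 151 of 7789 genes in columns 1 to 4 and 96 of 6340 in columns 5 to 7. Leaving out dexamethasone pair 10, dexamethasone pair 12 or untreated pair 11 gave 0 called members each time.

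**Figure D3:**
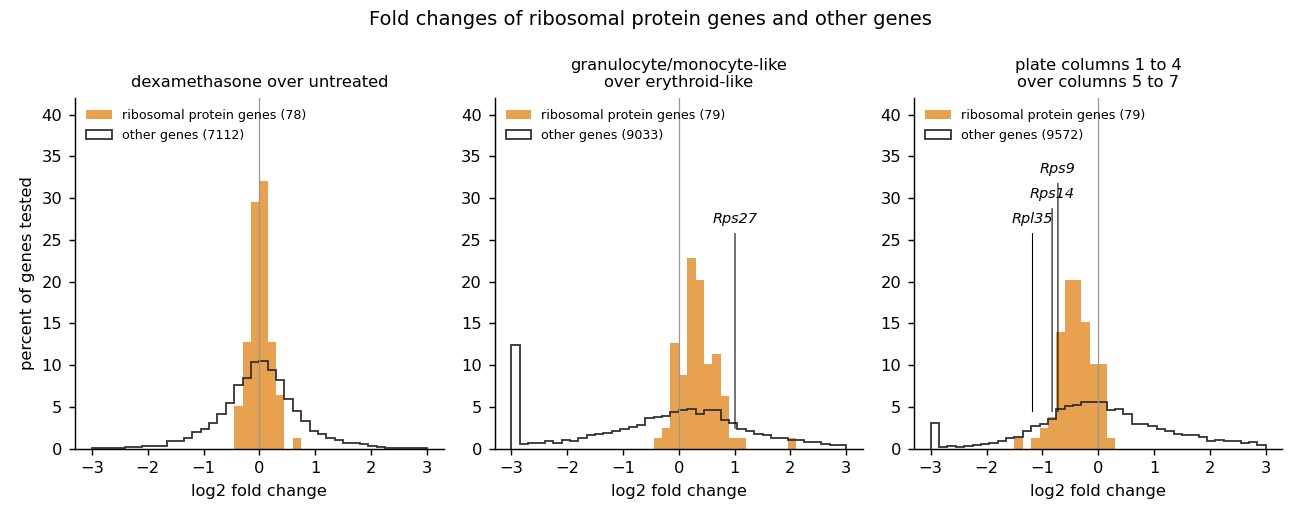
Distribution of log2 fold changes (x axis; values beyond 3 are drawn at the edge) as percent of genes tested (y axis) for ribosomal protein genes (orange) and the other genes (black line) in 3 comparisons. Members lie about 0 for dexamethasone (median 0.01), to the right for granulocyte/monocyte-like pairs (median 0.31) and to the left for plate columns 1 to 4 (median -0.39); members called by edgeR are named.

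Plate columns 1 to 4 against columns 5 to 7, with treatment as a covariate, was the second comparison. In columns 1 to 4, 3 members fell: Rpl35, a large subunit protein beside the mouth of the exit tunnel, and Rps14 and Rps9 of the small subunit. They are 3 of 79 members tested (3.80%), where the percentage called was 1.62 among all 9651 genes in either direction and 0.881 for genes that were lower. The rest of the family lay on the same side: 70 of 79 members had negative values and 9 had positive ones. At an unadjusted p under 0.05 there were 32 members (40.5%), all with negative values, against 12.2% of all genes in either direction. The median log2 fold change was -0.39 for members against 0.07 for all genes. Part of this gap went with level. Among genes over 100 CPM the median was -0.38 for 74 members and -0.22 for 2359 other genes. Negative values were held by 66 of these members and 1493 of these other genes. Without dexamethasone pair 10 the medians were -0.23 for members and 0.16 for all genes. At an unadjusted p under 0.05 there were then 14 members and 1188 of all 9492 genes. Without both pairs that hold a library above 9% the medians were -0.28 and 0.13, with 17 members and 1680 of 10034 genes. Without untreated pair 11 the members' median was -0.36 (24 members and 1555 of 10218 genes). Without dexamethasone pair 12 it was -0.38 (32 members and 1163 of 9681 genes).

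Rpl35 had 211, 287 and 461 CPM (lowest, median, highest) in the 14 pairs of columns 1 to 4, against 347, 515 and 1097 CPM in the 9 pairs of columns 5 to 7. The groups overlapped slightly, since 12 of the 14 pairs lay below every pair of columns 5 to 7. Its log2 fold change was -1.18 ± 0.20 (SE, edgeR adjusted p = 0.00289). The gene lies at chr2:39001580-39005624 (GENCODE M21, GRCm38, minus strand). Its start as RefSeq lists it, which falls inside that interval, carries the longest of the pyrimidine runs printed above, 18 bases.

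Rps14, the gene whose single-copy loss underlies the anaemia of the 5q- syndrome in people, had 710, 1075 and 1753 CPM in columns 1 to 4 and 1060, 1791 and 2862 CPM in columns 5 to 7, a log2 fold change of -0.83 ± 0.16 (SE, edgeR adjusted p = 0.0112). Rps9, a protein of the entry channel for messenger RNA, had 779, 987 and 1531 CPM in columns 1 to 4 and 936, 1461 and 2189 CPM in columns 5 to 7, a log2 fold change of -0.72 ± 0.15 (SE, edgeR adjusted p = 0.0144). Rps14 lies on chromosome 18 and Rps9 at chr7:3703993-3706897 (plus strand). For both genes the groups overlapped, with 6 (Rps14) and 5 (Rps9) of the 14 pairs below every pair of columns 5 to 7. Of the 79 members 0 had groups that did not overlap, a count made for the members only and not set against other genes. Among the next members were Rpl19 at -0.75 ± 0.20 (SE, edgeR adjusted p = 0.0541) and Rpl27 at -0.87. Rps4x, Rps2, Rps20, Rps15a and Rpsa had the smallest p among members with positive values, which were 0.10 to 0.16.

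**Figure D4:**
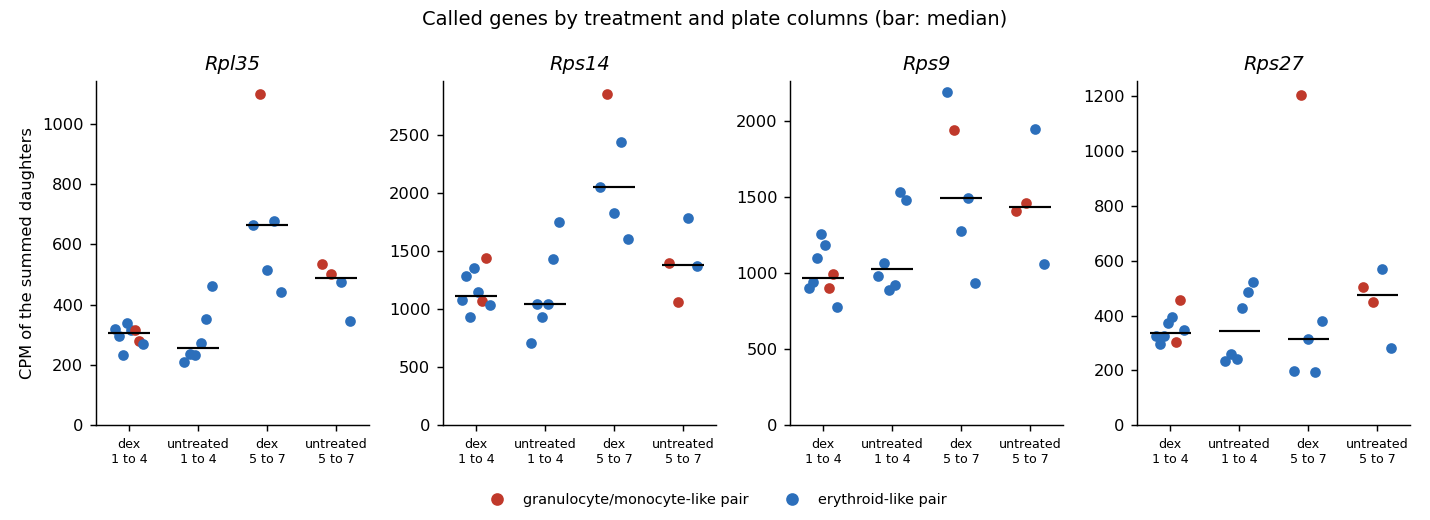
CPM of the summed daughters of each pair (y axes from 0) for the 4 genes called between groups of pairs, by treatment and plate columns; points are pairs, coloured by marker class, and bars are medians. Rpl35, Rps14 and Rps9 lie lower in columns 1 to 4 than in columns 5 to 7 under both treatments with overlap, and Rps27 has 1 high granulocyte/monocyte-like pair at 1204 CPM.

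The calls held in part. Rpl35 was called under each scaling and tool run. Rps9 was not called with RLE scaling (edgeR adjusted p = 0.06), library totals (edgeR adjusted p = 0.092), no filter on low counts (edgeR adjusted p = 0.084) or limma (-0.28, adjusted p = 0.397), and Rps14 was not called with library totals (edgeR adjusted p = 0.0545). Without the 5 granulocyte/monocyte-like pairs, edgeR called 0 members and 12 of 10680 genes. At an unadjusted p under 0.05 there were then 25 members and 1841 genes. In this setting Rpl35 had -1.01 (edgeR adjusted p = 0.0783), Rps14 had -0.90 and Rps9 had -0.68. Within dexamethasone pairs the members' median was -0.48 and Rpl35 had -1.35, and within untreated pairs the median was -0.25 and Rpl35 had -0.91. In both, edgeR called 0 members, where it called 10 of 7642 genes in dexamethasone pairs and 0 of 7865 in untreated pairs. In dexamethasone pairs 17 members and 642 genes had an unadjusted p under 0.05, and in untreated pairs 3 members and 679 genes. Without dexamethasone pair 10, Rps9 was no longer called (-0.60), and without the pairs that hold the 2 libraries above 9%, all 3 were, as they were without dexamethasone pair 12. The count of called members was 9 without dexamethasone pair 7 (227 genes in all) or untreated pair 6 (155 genes). It was 6 without dexamethasone pair 13 (141 genes) and 5 without dexamethasone pair 9 (176 genes) or untreated pair 8 (159 genes). With all pairs it was 3 (156 genes). The interaction of treatment with plate set called 0 of 79 members, where the percentage called was 0 among 9651 genes (1086 of them, and 0 members, at an unadjusted p under 0.05).

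The size of the family's offset depended on the scaling, and its sign relative to other genes did not. The median of all genes was 0.07 under TMM (the scaling used here), 0.22 under RLE scaling, 0.26 under library totals and 0.71 with limma on log2(CPM + 1). The members' median minus that of all genes was -0.45, -0.47, -0.45 and -0.68 in these 4 settings, although with limma the members' own median was 0.03. Other genes of translation did not all lie on that side. Mitochondrial ribosomal protein genes had a median of -0.61, and 3 of 77 fell: Mrpl28 (-1.21 ± 0.20, SE), Mrpl42 (-1.12 ± 0.23) and Mrps7 (-1.05 ± 0.22). Of the 9 genes for ribosomal proteins outside the symbol pattern, such as Fau and Rack1, 0 were called and 8 had negative values. The translation factor list had 0 of 29 called and a median of 0.19, with 21 positive values. All 18 Diamond-Blackfan genes had negative values, near the 88.6% of all members and against 47.6% of all genes. Their median was -0.49, and 1 of them, Rpl35, was called. Rps19 had -0.65 ± 0.19 (SE, edgeR adjusted p = 0.0674).

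The fold changes went with transcript length, and genes detected and the mitochondrial share also differed between the column sets. The 74 members over 100 CPM had medians of -0.51 up to 500 nt (11 genes), -0.44 from 500 to 1000 nt (46), -0.24 from 1000 to 2000 nt (13) and -0.07 from 2000 to 4000 nt (3), while the 1 member above that, Rps15a, had 0.14. Other genes over 100 CPM had -0.70, -0.61, -0.37, -0.04 and 0.23 in the same classes. In the classes up to 2000 nt the members' medians lay nearer to 0 than those of other genes, and the classes above that hold too few members to compare. Across genes, Spearman's rho between length and fold change was 0.47 over the 74 members and 0.40 over 2359 others, a description over genes measured in the same libraries. Genes detected had a median of 8050 in columns 1 to 4 and 6858 in columns 5 to 7, and mitochondrial transcripts took 2.64% and 1.53% of counts. The part of length or RNA quality in the members' offset was not tested.

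**Figure D5:**
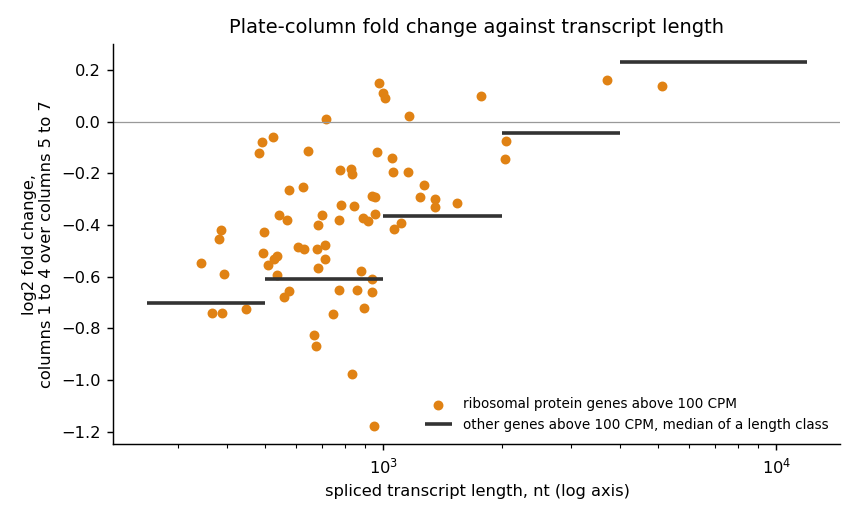
Log2 fold change of plate columns 1 to 4 over columns 5 to 7 (y axis) against spliced transcript length in nt (log axis); points are the 74 ribosomal protein genes over 100 CPM and horizontal lines the medians of other genes over 100 CPM in 5 length classes. Short transcripts lie lowest in both, and the members scatter about the lines of other genes of the same length.

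Granulocyte/monocyte-like pairs against erythroid-like pairs, with treatment as a covariate, compared classes defined from marker genes and not by the study. Only Rps27 rose in the granulocyte/monocyte-like pairs, 1 of 79 members tested, where the percentage called was 2.71 among all 9112 genes in either direction and 1.61 for genes that were higher. Most members had values on the same side: 66 members had positive and 13 negative values. At an unadjusted p under 0.05 there were 17 members (21.5%), all positive, near the 17.8% of all genes in either direction. The median log2 fold change was 0.31 for members against -0.01 for all genes. Short transcripts outside the family lay on the same side. Up to 500 nt the median was 0.57 for members over 100 CPM and 0.68 for other genes over 100 CPM, and from 500 to 1000 nt it was 0.26 for members and 0.47 for other genes. From 1000 to 2000 nt it was 0.29 for the 13 members and 0.09 for other genes. Genes detected had a median of 6924 in the granulocyte/monocyte-like libraries and 7864.5 in the erythroid-like ones. The part of length or RNA quality in the members' values was not tested.

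Rps27, a zinc finger protein of the small subunit encoded at chr3:90212522-90213651 (minus strand), had 305, 450, 458, 503 and 1204 CPM in the 5 granulocyte/monocyte-like pairs, against 195, 326 and 571 CPM (lowest, median, highest) in the 18 erythroid-like pairs. The value of 1204 CPM belongs to dexamethasone pair 10, and the other 4 pairs lay inside the erythroid-like range. The log2 fold change was 1.01 ± 0.26 (SE, edgeR adjusted p = 0.0368). The plate columns were unevenly spread over the classes, with 3 of the 5 granulocyte/monocyte-like pairs and 6 of the 18 erythroid-like pairs in columns 5 to 7. With plate set as a further covariate Rps27 was not called, at 0.91 ± 0.28 (SE, edgeR adjusted p = 0.0808), nor was it with library totals (0.81, edgeR adjusted p = 0.124), no filter on low counts (0.93, edgeR adjusted p = 0.0615) or limma (0.74, adjusted p = 0.28). Without dexamethasone pair 10, whose first daughter is one of the libraries above 9% and whose second lies near the limit between the classes, it was 0.49 ± 0.26 (SE, edgeR adjusted p = 0.29), 0 members were called, and the medians were 0.09 for members and -0.17 for all genes. Without dexamethasone pair 12, 2 members were called, Rps27 among them, and 298 genes in all. It was 3 members and 318 genes without dexamethasone pair 11, and 0 members and 209 genes without untreated pair 11. The call of Rps27 was lost when any of 16 of the 23 pairs was left out in turn, that is untreated pairs 1, 2, 3, 5, 6, 9, 11 and 13 and dexamethasone pairs 1, 2, 3, 4, 5, 8, 10 and 13. Its copy Rps27l had 0.29 ± 0.23 (SE, edgeR adjusted p = 0.623).

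After Rps27 came Rpl32 at 0.79, Rps25 at 0.68 and Rpl4 at 0.49, for which edgeR's adjusted p was between 0.0656 and 0.0779. DESeq2 called 6 of 79 members, among them Rps27, Rps25, Rpl32, Rpl4 and Rps16, where it called 1252 of all 8871 genes. Limma called 0 members and 577 of 9112 genes. The members' median minus that of all genes was 0.32 under TMM, 0.31 under RLE scaling, 0.33 under library totals and 0.73 with limma, where the median of all genes was -0.64. Among the negative values with the smallest p were those of Rps2 at -0.33, Rps10, Rpl17 and Rpl26. Rps2, a protein of the messenger RNA entry channel, had 700, 1076 and 1419 CPM in the granulocyte/monocyte-like pairs and 706, 1591 and 2672 CPM in the erythroid-like pairs. Among list genes outside the family, Mrpl33 (1.97 ± 0.38, SE) and the pseudogene Rpl34-ps1 (1.82 ± 0.50) rose. Of 60 ribosomal protein pseudogenes tested, 52 had positive values, with a median of 0.50, and reads shared between pseudogenes and members cannot be told apart here.

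For most members, sister cells lay closer together than cells from separate founders. The mean absolute difference in log2(CPM + 1) between sisters had a median of 0.63 over 79 members, against 0.77 between cells of different founders with the same treatment, and the ratio of the 2 had a median of 0.845 and was below 1 for 75 of 79 members (94.9%). Other genes showed the same: the ratio was 0.865 over 8015 genes (79.0% below 1) and 0.815 over the 449 genes at or above the median member's level (91.8% below 1). Sisters always share a plate column, and against founders of the same treatment and column alone the ratio was 0.880 and below 1 for 65 of 79 members (82.3%). In that setting it was 0.903 over all genes (69.4% below 1) and 0.850 over the 449 genes (85.1% below 1). Without dexamethasone pair 12 the members' differences were 0.52 between sisters and 0.63 between founders, with a ratio of 0.821.

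The smallest ratio belonged to Rps4l (0.488), and the next to Rpl35 (0.578), Rps2 (0.639), Rplp1 (0.645) and Rpl37 (0.657). Rpl35 differed by 0.43 between sisters and 0.74 between founders. The largest ratios were those of Rpl35a (1.11), Rpl30 (1.06), Rpl4 (1.03), Rpl12 (1.01) and Rps7 (0.994). For Rpl4, whose level was steadiest, the difference was 0.39 between sisters and 0.37 between founders, so sisters were no closer than other cells.

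Rps4l, a transcribed processed pseudogene, varied most between founders, by 1.93 on the log2(CPM + 1) scale between sisters and 3.96 between founders. It was detected in 33 of 48 libraries, at 0 to 1274 CPM. Examples of pairs in which both sisters had it are dexamethasone pairs 6 (92.7 and 83.2 CPM) and 9 (201 and 549 CPM) and untreated pairs 6 (125 and 109 CPM), 8 (199 and 213 CPM) and 10 (296 and 147 CPM). Both were at 0 in dexamethasone pair 12 and untreated pairs 9 and 11. Sisters lay far apart in dexamethasone pairs 7 (230 and 0 CPM), 11 (287 and 0.317 CPM) and 10 (1274 and 106 CPM). As a pseudogene it may share reads with its parent gene, so its values are uncertain.

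The joint test of pair terms, which asks in edgeR whether founders differ beyond the spread between sisters, called 15 of 79 members, where the percentage called was 3.38 among all 8015 genes. Among them were, in order of p, Rpl37, Rpl26, Rpl27, Rpl31, Rpl18, Rpl10, Rps14, Rpl35, Rpl28, Rpl12, Rpl35a, Rpl17 and Rps27l, with edgeR adjusted p between 8.75e-05 for Rpl37 and 0.00954 for Rps27l. All 15 lay at over 2-fold their usual level in the first daughter of dexamethasone pair 12, where Rpl37 had 1901 CPM against a median of 231 CPM elsewhere. Without that pair edgeR called 0 of the 79 members, where the percentage called was 1.81 among 8001 genes. At an unadjusted p under 0.05 there were then 16 members and 1424 genes. In this setting the lowest edgeR adjusted p over the 79 members was 0.0507, just above the limit. Rpl17 had the highest edgeR adjusted p of the 15 genes, 0.958. Scaling by library totals also left 0 members. TMM gave the library in question a factor of 0.141 in this test. The 15 calls thus rest on that pair.

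Limma on log2(CPM + 1) called only Rps4l among the 79 members with all pairs, where it called 651 of all 8015 genes. Without dexamethasone pair 12 it called 3 members, Rps4l and Rps2 among them, and 604 of 8001 genes. With pair terms inside plate columns edgeR called only Rpl26, and 93 genes in all. The members' levels varied together from cell to cell: over 46 libraries, the 40 members at or above the median member's level had a median pairwise Pearson correlation of 0.49 in log2(CPM + 1), against 0.16 for 409 other genes of that level. Without dexamethasone pair 12 the values were 0.48 and 0.03 over 44 libraries. Without the 2 pairs that hold a library above 9% they were 0.41 and 0.17 over 42 libraries. The share of positive gene pairs among members was 75.1% over all 46 libraries, 99.2% without dexamethasone pair 12 and 65% without the pairs above 9%, against 67.4%, 55.2% and 67.5% among the other genes. All values come from the same libraries and share their depth and scaling, so this is a description.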

How the data were processed

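Raw read counts, whole numbers for each gene and not normalized, were deposited by the authors in 1 table per treatment. STAR 2.4, featureCounts and the build GRCm38 are named in the submitters' processing notes. No source used here gives the strand setting or what was done with reads that fit several genes, so members with near-identical copies and antisense partners carry an uncertain split of reads. No molecular identifiers are mentioned, and intervals and limits at 0 cover counting error only. Each column name matched 1 sample, 0 columns were left unused, and every library ran in 1 lane. GENCODE M21 gave gene types and transcript lengths, and RefSeq (GRCm38.p6) gave start windows.

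Libraries under 100000 counts were left out. Counts of the 2 daughters of a pair were summed, filtered with filterByExpr (minimum count 10, minimum total 15), scaled by TMM and tested with glmQLFit and glmQLFTest in edgeR 4.0.16 under R 4.3.3, with Benjamini-Hochberg adjustment across every tested gene and calls at an adjusted p under 0.05. Treatment was a covariate in the plate and lineage tests. The founder test used single libraries, a minimum of 5 counts in 10 or more libraries, and all pair terms within treatment. A standard error is the log2 fold change divided by the square root of F. Spreads used log2(CPM + 1). The same tests were also run on simulated counts with large changes and no lineage, plate or library defects. That run does not check them for smaller changes or for such defects. Alternatives used DESeq2 1.42.0 and limma 3.58.1, other scalings, filters and subsets.

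A library was given the class whose 12 markers had the larger mean log2(CPM + 1), so the classes were defined from these data. The members, lists and rules were chosen with earlier results of these data known. Named genes are the Diamond-Blackfan genes, the copies named Rpl3l, Rpl10l, Rpl39l and Rps27l with their main genes, the stalk genes, the 5 highest and 5 lowest by CPM per kb, the 5 smallest p in each direction per test (10 in the founder test), called genes, and the 5 smallest and largest spread ratios. The dexamethasone pair 12 library, the pairs above 9%, scaling by library totals and the interaction test were alternatives chosen after seeing the data, as were members named for their values in a single library or for their variation (Rpl29, Rps12 and the like). A few genes that these rules name are not reported here.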

Additional observations from a re-analysis of the deposited data

Results flagged for a closer look

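Values that lay far from the others of their group were looked for in 30 groups of 4 to 10 pairs, where chance alone would mark about 1 in 20. Dexamethasone pair 10 was far above the other granulocyte/monocyte-like pairs in Rps14, with 2862 CPM against 1444 CPM in the nearest of the other 4, and in Rps27, with 1204 CPM against 503 CPM. It was also far above the other 4 dexamethasone pairs of columns 5 to 7 in Rps27, with 1204 CPM against 382 CPM in the nearest. Its first daughter is one of the libraries in which these genes took over 9% of counts. The summed share of untreated pair 11, 6.17%, lay far above that of the other 3 untreated pairs of columns 5 to 7, of which the nearest had 4.04%. Among libraries left out for depth, the first daughter of untreated pair 4, with 13575 counts, had 19.8% of them in ribosomal protein genes (95% Wilson interval 19.1 to 20.4%), above the highest share of 9.48% in the deeper libraries.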

How the results depend on the processing

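Members called for dexamethasone stayed at 0 under every alternative run, including each pair left out in turn (0 to 0) and the pair number of the labels as a replicate block (0 called, median -0.07). Same-numbered pairs of the treatments correlated at -0.11 to 0.13 over 10 numbers, so the numbers share only a name. For plate columns, 3 members were called, against 1 (Rpl35) with library totals, 2 with RLE, 2 with limma, 10 with shallow libraries included, and 0 without granulocyte/monocyte-like pairs, within dexamethasone pairs and within untreated pairs. Leaving out each pair gave 2 to 9. The numbers of genes called in all were 156, against 85 with RLE, 73 with library totals, 79 without a filter, 557 with DESeq2, 281 with limma, 332 with shallow libraries and 12 without granulocyte/monocyte-like pairs. For lineage, 1 member was called, against 6 with DESeq2, 2 with shallow libraries, and 0 with library totals, limma, no filter, plate set as a covariate, without dexamethasone pair 10 and without the pairs above 9%. Leaving out each pair gave 0 to 3. The lineage test called 247 genes in all, against 1252 with DESeq2, 271 with shallow libraries, 217 with library totals, 577 with limma and 739 without a filter. It called 246 genes with plate set as a covariate, 299 without dexamethasone pair 10 and 266 without the pairs above 9%. The founder test called 15 members, against 29 with RLE, 30 with a stricter filter (10 counts in 20 libraries), 7 without the pairs above 9%, 1 with limma, 1 within plate columns, 3 with limma without dexamethasone pair 12, and 0 with library totals and without dexamethasone replicate 12. In all it called 271 of 8015 genes, against 316 with RLE, 324 of 5239 with the stricter filter and 151 without the pairs above 9%. It was 651 genes with limma, 93 within plate columns and 604 with limma without dexamethasone pair 12. Library totals gave 95 genes, and leaving out dexamethasone replicate 12 gave 145. The cause of these shifts was not tested. In 0 alternatives did a called member change sign. The spread ratio stayed between 0.791 and 0.880, and the median share was 3.73% with TMM scaling. Counts were too few below about 100000 per library for single members to be read.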
